A study of Mus musculus with 6 samples.

Results

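The genes of sister chromatid cohesion were followed in mouse oocytes with and without the RNA-binding protein LSM14B. The 10 genes were taken by symbol from the 24255 genes of the expression table: 6 cohesin subunits (Rec8, Rad21, Smc3, Smc1a, Smc1b and Stag3), the acetyltransferases Esco1 and Esco2, Pttg1 (securin) and Espl1 (separase). RNA-Seq had been run on fully-grown oocytes (FGOs) at the germinal vesicle (GV) stage, which are arrested in prophase of the first meiotic division. There were 3 WT and 3 Lsm14b-KO libraries, each made from a pool of 20 oocytes by Smart-seq2, a method that amplifies cDNA from very few cells. Females of both genotypes had received 5 IU of PMSG, a gonadotropin that drives follicle growth, 46 h before collection, and the colony was kept on a C57BL/6J background. Lsm14b-KO females were homozygous for Lsm14b tm1a(KOMP)Mbp, a knockout-first insertion with a reporter that is carried in every tissue. The surrounding somatic cells carried the insertion as well, but the study found LSM14B protein in oocytes and not in granulosa cells or other tissues. The Lsm14b-KO females came from tm1a/tm1a males and tm1a/+ females. This cross gives no WT pups, so the WT females came from other litters, and genotype and litter cannot be told apart. The age of these mice, and whether the 3 libraries of a group came from different mice, are not given in the sources used here. The p-values therefore measure the spread between these libraries, which may be technical.

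Cohesin is a ring of an SMC1 and an SMC3 subunit, closed by a kleisin and joined by a STAG protein, that holds sister chromatids together. Meiotic cells use their own versions, with REC8 in place of the kleisin RAD21, SMC1B beside SMC1A, and STAG3. ESCO1 and ESCO2 acetylate SMC3 and so make cohesion lasting, and the protease separase, held in check by securin until the anaphase-promoting complex destroys it, opens the ring by cutting the kleisin. In mammalian oocytes cohesion is laid down before birth and must hold through the long prophase arrest, whereas GV-stage FGOs carry a store of mRNAs that are translated later, as meiosis resumes.

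FPKM, the unit of the table, counts fragments relative to transcript length and to the mapped total of the library, so levels of different genes can be set side by side. The total counts were not used here, but the steps between the lowest values gave relative depths of 1.00 to 1.14 in WT and 1.33 to 2.17 in Lsm14b-KO libraries, while the summed FPKM was 1141324 to 1244182 in WT and 564671 to 1029728 in Lsm14b-KO libraries. Lsm14b had 2.77, 3.98 and 1.72 FPKM in WT and 0, 0 and 0.10 FPKM in Lsm14b-KO libraries, as the genotype labels give it. Lsm14b-KO replicate 1 had a Pearson's r of log2(FPKM + 1) of 0.960 with Lsm14b-KO replicate 3, 0.952 to 0.954 with the WT libraries and 0.917 with Lsm14b-KO replicate 2, across 6398 genes and with no test. Lsm14b-KO replicates 2 and 3 had 0.974 with each other, and results are given with and without replicate 1. All 10 oocyte markers were present. They summed to 43457 to 54561 FPKM in WT and 28301 to 70223 FPKM in Lsm14b-KO libraries. Most of this was Dppa3 (34582 to 47684 FPKM in WT against 19433 to 63633). Ddx4, the lowest, was higher in Lsm14b-KO libraries (0.39 to 0.90 against 2.86 to 3.49 FPKM). Oosp1 was lower in them (4926 to 5800 against 1846 to 4840 FPKM). These 2 did not overlap between the groups, and the other oocyte markers did. Of 10 cumulus and granulosa markers, Amh, Inhba, Foxl2 and Cyp11a1 were listed at 0 in all 6 libraries. The 10 together summed to 9.68 to 13.5 FPKM in WT and 6.60 to 10.8 FPKM in Lsm14b-KO libraries, most of it Cyp19a1 (8.26 to 11.5 FPKM in WT against 3.00 to 5.76). Fshr (0.35 to 1.68 against 1.82 to 2.07 FPKM), Kitl (0.097 to 0.38 against 0.40 to 0.56 FPKM) and Hsd3b1 (listed at 0 against 0.46 to 0.83 FPKM) lay the other way, without overlap. All 5 red blood cell markers were listed at 0. The part that depth or the levels of these markers play in the results was not tested.

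The 10 genes ranged from values listed at 0 to 1429 FPKM. In WT FGOs securin and Esco2 were among the abundant mRNAs, with 97.1% and 91.5% of the 6398 tested genes below them, whereas the mRNAs of the ring itself were scarce. In order of their WT level the genes ran Pttg1, Esco2, Esco1, Rad21, Smc3, Smc1a, Smc1b and Espl1, with Rec8 and Stag3 listed at 0. Each gene in the order was above the next in all 3 WT libraries, except that Smc1a and Smc1b overlapped and that Espl1 was itself at 0 in WT replicate 1. In Lsm14b-KO FGOs the order differed in that Smc1a stood above Smc3 in all 3 libraries, the neighbours Esco1 and Rad21, Smc3 and Smc1b, and Smc1b and Espl1 overlapped, and Stag3 stood above Rec8 by single fragments. As the libraries pool 20 oocytes, fewer oocytes holding an mRNA and less of it in each oocyte cannot be told apart.

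**Figure D1:**
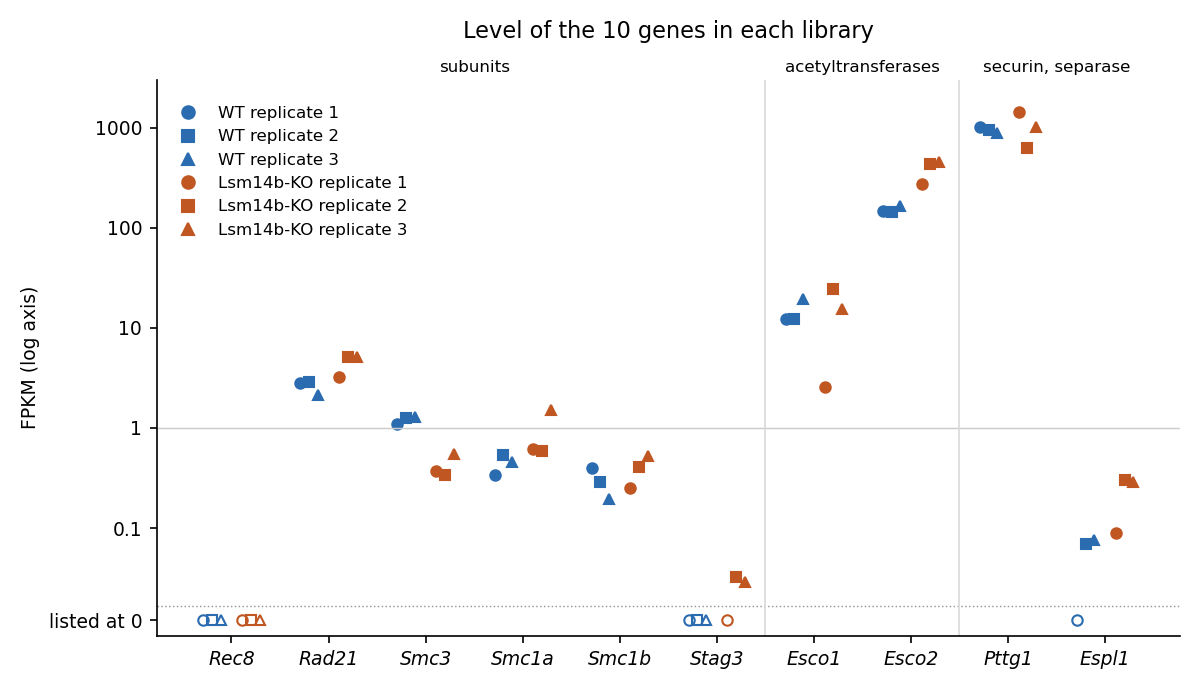
FPKM of each of the 10 genes in each library on a log axis, with WT in blue and Lsm14b-KO in orange, a different symbol for each replicate, and open symbols on the lowest line for values listed at 0. Securin (Pttg1) lies between 627 and 1429 FPKM and the subunits between 0 and 5.06 FPKM. Smc3 is lower, and Esco2 higher, in all 3 Lsm14b-KO libraries than in any WT library.

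To find which of these mRNAs differ between the genotypes, limma was run on log2(FPKM + 1) over all genes that reached 1 FPKM in some library. Of the 10 genes, 6 passed this minimum: Rad21, Smc3, Smc1a, Esco1, Esco2 and Pttg1. Smc3 reached it in WT libraries alone, and Smc1a in Lsm14b-KO replicate 3 alone. Of these 6, 2 had an adjusted p under 0.05, Esco2 as higher and Smc3 as lower in Lsm14b-KO FGOs. Among all 6398 tested genes 21.6% were called, 6.38% as higher and 15.2% as lower. In 4 of the 6 (Rad21, Smc3, Smc1a and Esco2) the groups did not overlap, where 45.0% of all tested genes were separated in that way. The median log2 fold change of the 6 genes was 0.20, beside -0.08 for all tested genes. The balance of calls over all genes depended on the scaling, since 29.5% of them were higher here, 63.2% after scaling to equal FPKM sums (TPM), 42.4% after quantile normalization and 43.6% after a correction for transcript length and GC content. The median of all tested genes moved from -0.08 to 0.40 under TPM scaling, to 0.08 after correction for length and GC content and to 0.07 after quantile normalization. Without Lsm14b-KO replicate 1, 3 of the 6 were called, with Rad21 in addition, among 2898 calls over all genes.

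Of the kleisins, Rad21 mRNA was present at a low level and Rec8 mRNA was listed at 0. RAD21 is the kleisin of mitotic cells. Rad21 (chromosome 15, 51962240 to 51991747, GRCm38/mm10, minus strand) had 2.78, 2.90 and 2.12 FPKM in WT and 3.23, 5.06 and 5.06 FPKM in Lsm14b-KO libraries. The groups did not overlap, with Lsm14b-KO replicate 1 the lowest of its group, at 1.24 times the WT mean, and the other two at 1.94 times. The log2 fold change of 0.58 (SE 0.23) did not pass the threshold, with a limma adjusted p of 0.0998. Without Lsm14b-KO replicate 1 it was 0.76 (SE 0.20) at a limma adjusted p of 0.0202, the single alternative of 15 past the threshold, the highest adjusted p among them being 0.270. Rec8 (chromosome 14, 55618037 to 55625395, plus strand), the kleisin that separase cuts in meiosis, was listed at 0 in all 6 libraries. At the estimated depth 3 fragments of Rec8 would have been 0.35 to 0.40 FPKM in WT and 0.18 to 0.30 FPKM in Lsm14b-KO libraries. A Rec8 mRNA below this level could therefore have been missed. A value listed at 0 can also be an estimate that failed, and no fold change is given.

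Smc3 mRNA was lower in Lsm14b-KO FGOs, and it was the only one of the 6 tested genes called as lower. It passed the minimum of 1 FPKM only through WT libraries, the group where it was higher. Without a minimum its limma adjusted p was 0.0745, and the call stayed in 5 of 14 alternatives. SMC3 is the arm of the ring that every form of cohesin shares and the substrate of the ESCO enzymes. Smc3 (chromosome 19, 53600398 to 53645833, plus strand) had 1.09, 1.25 and 1.27 FPKM in WT and 0.37, 0.34 and 0.55 FPKM in Lsm14b-KO libraries. The Lsm14b-KO values lay between 0.28 and 0.46 times the WT mean, all below the lowest WT value, and here Lsm14b-KO replicate 1 sat with the other two. The mean level fell from 1.20 ± 0.098 to 0.42 ± 0.12 FPKM (SD, n = 3 each). On the log2(FPKM + 1) scale the log2 fold change was -0.64 (SE 0.19, limma adjusted p 0.0449). A gene near 1 FPKM has its change understated on this scale, and with 0.01 FPKM added in place of 1 the log2 fold change was -1.53. Leaving out any library but Lsm14b-KO replicate 1 ended the call (adjusted p 0.0954, 0.116 and 0.0961 without WT replicates 1, 2 and 3, and 0.0962 and 0.108 without Lsm14b-KO replicates 2 and 3, in limma), and under TPM scaling it was -0.35 with an adjusted p of 0.262. Set against the all-gene median, which that scaling had moved, it was -0.56 in the main scaling and -0.75 under TPM scaling.

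The reads behind Smc3 were few. About 20, 26 and 24 fragments stood behind the WT values and about 9, 12 and 22 behind the Lsm14b-KO values, from libraries 1.33 to 2.17 times as deep as WT replicate 1. Per unit of depth the Lsm14b-KO libraries together held 0.357 times the WT fragments, with an exact 95% interval of 0.239 to 0.530 that covers counting error only, since amplified reads are not independent molecules. The interval of Rad21 was on the other side, at 1.77 times (1.44 to 2.19). The annotation holds 1 transcript, Gm29763, that is at least 90% identical to part of Smc3, so a share of its reads may be placed there or taken from it.

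**Figure D2:**
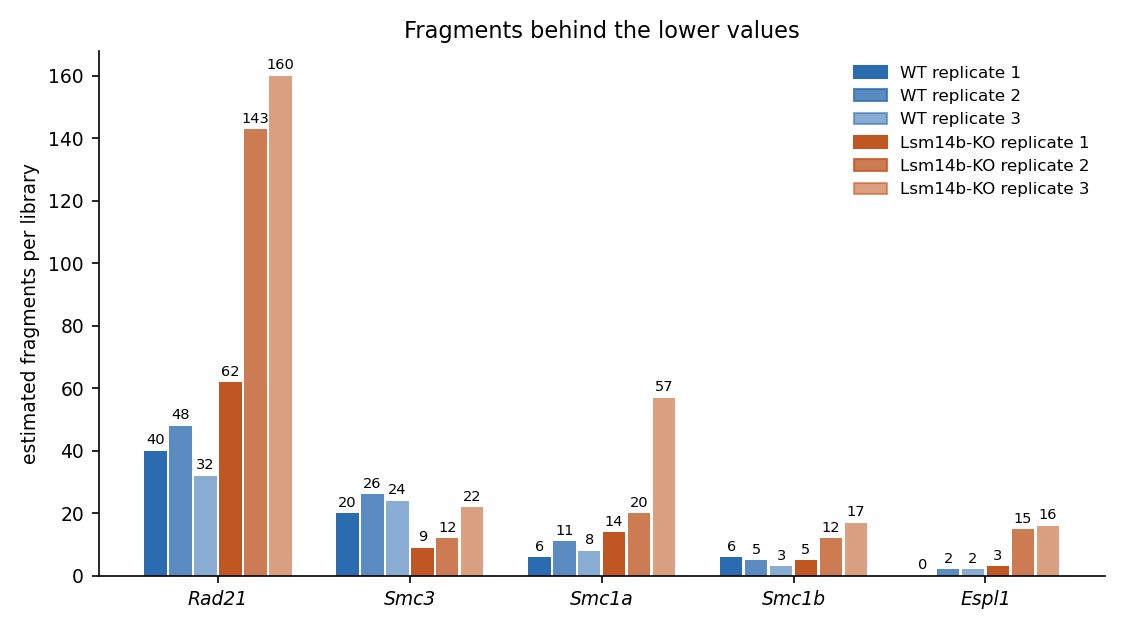
Estimated number of fragments behind the FPKM of 5 of the genes in each library, with WT in blue shades and Lsm14b-KO in orange shades and the count written above each bar. Smc3 rests on 9 to 26 fragments and Rad21 on 32 to 160, whereas Smc1b and Espl1 rest on at most 17. The Lsm14b-KO libraries were deeper, so equal bars are not equal levels.

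The SMC1 pair had low and similar levels, with no difference past the threshold. Smc1a (chromosome X, 152016428 to 152062694, plus strand) had 0.34, 0.53 and 0.46 FPKM in WT and 0.61, 0.59 and 1.50 FPKM in Lsm14b-KO libraries. The groups did not overlap, yet the highest WT and the lowest Lsm14b-KO value were 0.53 and 0.59 FPKM, and Lsm14b-KO replicate 3 alone was far above the rest. Its log2 fold change was 0.36 (SE 0.24, limma adjusted p 0.276, 95% interval -0.18 to 0.91), which fell to 0.15 without Lsm14b-KO replicate 3 and was 0.47 without Lsm14b-KO replicate 1. Smc1b (chromosome 15, 85064689 to 85131964, minus strand), the meiotic form, had 0.40, 0.29 and 0.19 FPKM in WT and 0.25, 0.41 and 0.52 FPKM in Lsm14b-KO libraries. These values overlapped, stood on 3 to 17 fragments and were under the minimum for the test, and without that minimum the log2 fold change was 0.10 (limma adjusted p 0.635). Each gene overlaps 1 processed pseudogene, Gm15267 for Smc1a and Gm10923 for Smc1b, and the strand setting of the libraries is not stated.

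Stag3 mRNA, for the STAG protein of meiotic cohesin, was at the edge of detection. Stag3 (chromosome 5, 138280240 to 138312393, plus strand) was listed at 0 in the 3 WT libraries and in Lsm14b-KO replicate 1, with 0.032 and 0.029 FPKM in replicates 2 and 3 of that genotype. Each of these values is what 1 fragment is worth in that library, and those were the deepest libraries. In WT libraries 3 fragments would have been 0.17 to 0.19 FPKM, so a difference below this level could have been missed.

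A ratio of genes within a library does not change when all its values are multiplied by 1 factor. Of the 7 pairs examined, Smc1b over Smc1a and Esco2 over Esco1 had both genes above 0 in all 6 libraries, and 3 against 3 values cannot give a two-sided exact permutation p below 0.10. Smc1b over Smc1a was 1.18, 0.55 and 0.42 in WT and 0.41, 0.69 and 0.35 in Lsm14b-KO libraries. These ranges overlapped, with a two-sided exact permutation p of 0.50 (n = 3 each). The log2 ratios were -0.63 ± 0.77 and -1.11 ± 0.52 (SD, n = 3 each). Further ratios of Smc3 were formed after its values had been seen, so they are a description without a test. Smc3 over Smc1a was 3.23, 2.33 and 2.77 in WT and 0.61, 0.57 and 0.37 in Lsm14b-KO libraries, so that the order of these partners in the ring was turned around in each Lsm14b-KO library. Smc3 over Rad21 was 0.39, 0.43 and 0.60 in WT and 0.11, 0.067 and 0.11 in Lsm14b-KO libraries. Smc3 over Smc1b was 2.74, 4.28 and 6.59 in WT and 1.48, 0.82 and 1.07 in Lsm14b-KO libraries. None of these 3 ratios overlapped between the groups, and Lsm14b-KO replicate 1 lay with the other Lsm14b-KO libraries in each.

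**Figure D3:**
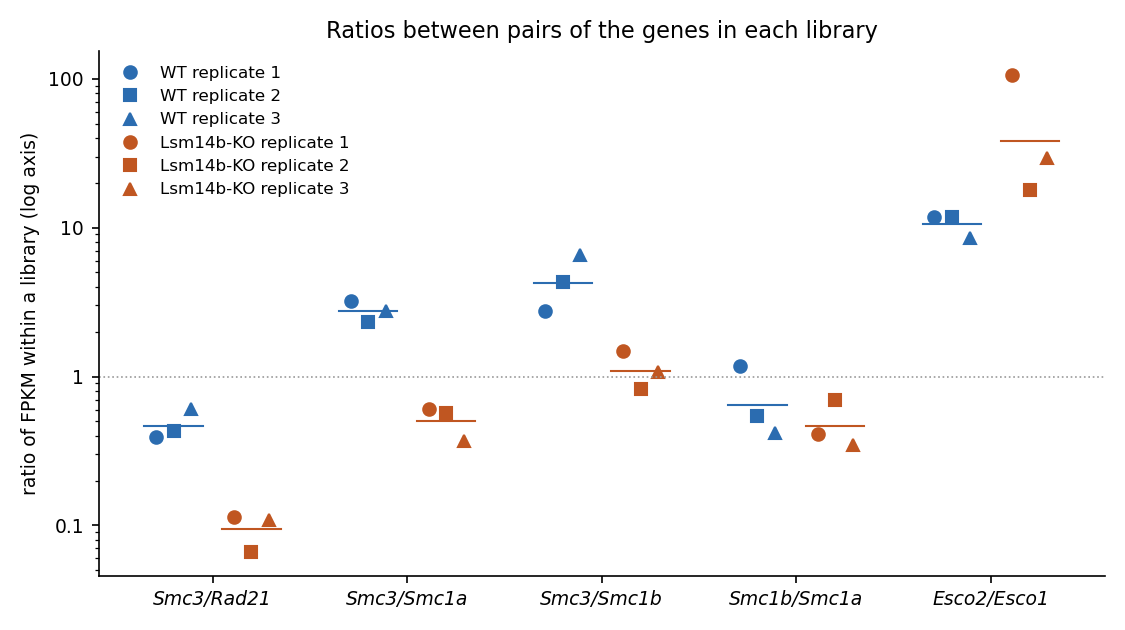
Ratio of the FPKM of pairs of the genes within each library on a log axis, with WT in blue, Lsm14b-KO in orange, a different symbol for each replicate and a line at the geometric mean of each group. The 3 ratios with Smc3 on top are lower in every Lsm14b-KO library than in any WT library, Smc1b over Smc1a overlaps, and Esco2 over Esco1 is highest in Lsm14b-KO replicate 1 at 107.

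The difference in Esco1 was within the spread between libraries. ESCO1 acts on cohesin throughout the cell cycle. Esco1 (chromosome 18, 10566507 to 10610352, minus strand) had 12.3, 12.1 and 19.6 FPKM in WT and 2.57, 24.5 and 15.4 FPKM in Lsm14b-KO libraries. Lsm14b-KO replicate 1 was far below every other library, at 0.17 times the WT mean, and the other Lsm14b-KO libraries were at 1.67 and 1.05 times it. The log2 fold change was -0.42 (SE 0.66, limma adjusted p 0.642, 95% interval -1.95 to 1.10). Lsm14b-KO replicate 1 set its sign: without it the log2 fold change was 0.42 (SE 0.30, limma adjusted p 0.282). Under TPM scaling with all 6 libraries it was 0.24, but set against the all-gene median, which that scaling had moved, it was -0.16, beside -0.35 in the main scaling. The adjusted p lay between 0.282 and 0.953 over its 15 alternatives. The annotation holds 1 near-identical copy of Esco1, the gene Gm7054, so part of its reads is uncertain.

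Esco2 mRNA was higher in Lsm14b-KO FGOs. ESCO2 is the acetyltransferase that is active in S phase, where new cohesion is made. The study itself had picked Esco2 from these libraries as a gene of meiotic progression, so its direction here is no independent evidence. The study also reports upregulation of Esco2 by qRT-PCR, which was not examined here. Esco2 (chromosome 14, 65819038 to 65833994, minus strand) had 146, 143 and 167 FPKM in WT and 274, 436 and 450 FPKM in Lsm14b-KO libraries. Every Lsm14b-KO value lay above every WT value, with Lsm14b-KO replicate 1 the nearest to WT at 1.80 times the WT mean and the others at 2.86 and 2.96 times. The mean rose from 152 ± 12.8 to 386 ± 97.7 FPKM (SD, n = 3 each), 2.54-fold. On the log2 scale this was 1.31 (SE 0.31, limma adjusted p 0.0255). It kept its direction in all 15 alternatives, between 1.18 and 2.02, and stayed past the threshold in 11 of them, with adjusted p from 0.00109 to 0.114. It did not pass without WT replicate 1 (limma adjusted p 0.110), WT replicate 2 (0.110), WT replicate 3 (0.0801) or Lsm14b-KO replicate 3 (0.114), whereas without Lsm14b-KO replicate 1 it was 1.54 (adjusted p 0.00109). The abundance gives Esco2 about 1523 to 10171 fragments per library, so counting error was small beside the spread between libraries.

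Because the acetyltransferases moved apart in Lsm14b-KO replicate 1, their ratio was uneven. Esco2 over Esco1 was 11.9, 11.8 and 8.51 in WT and 107, 17.8 and 29.1 in Lsm14b-KO libraries. The groups did not overlap, and the two-sided exact permutation p was 0.10 (n = 3 each), the smallest this design allows. The difference of the mean log2 ratios was 1.84, a factor of 3.59, and it was 1.10 without Lsm14b-KO replicate 1.

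Esco2 was the only one of the 10 genes with a sequence match to a cytoplasmic polyadenylation element at the end of its reference transcript. These elements, when near the poly(A) signal, let stored oocyte mRNAs be adenylated and translated as meiosis resumes. TTTTAT or TTTTAAT on the sense strand was searched for in the last 100 bases of the reference transcript of each gene, and AATAAA or ATTAAA as the poly(A) signal. Esco2 held 2 such elements, the nearer starting 23 bases from the end and sharing its last bases with the ATTAAA signal. None was in the last 100 bases of the other 9. The 3′ UTR of Rec8 has only 34 bases, so the rest of its window lies before the 3′ UTR. Of 5462 tested genes with a 3′ UTR of at least 100 bases, 20.5% held an element and 82.8% a poly(A) signal there, and of the 10 genes all but Smc1b and Smc3 held a signal. A match of letters is not a shown site, and the 3′ ends used by the oocyte were not measured. The windows of 30 bases below, from GENCODE M21 on GRCm38 and written 5′ to 3′ on the sense strand, show the most abundant genes beside Rad21, with the element and the signals in capitals. They lie at chr14:65819038-65819067 (minus strand) for Esco2, chr11:43420265-43420294 (minus strand) for Pttg1 and chr15:51962240-51962269 (minus strand) for Rad21.
Esco2: ttaagtgTTTTATTAAAagttttactagca
Pttg1: tgtattAATAAAgcatttgtgcatatgttc
Rad21: aaggtgagtttctgagcAATAAAagatttg

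Securin was the most abundant of the 10 mRNAs, and its difference in the main scaling was within the spread between libraries. Securin holds separase inactive until anaphase. Pttg1 (chromosome 11, 43420250 to 43426251, minus strand) had 1026, 946 and 878 FPKM in WT and 1429, 627 and 1015 FPKM in Lsm14b-KO libraries. Lsm14b-KO replicate 1 was the highest and replicate 2 the lowest of all 6 libraries, so the Lsm14b-KO values lay on both sides of WT. The log2 fold change was 0.03 (SE 0.36, limma adjusted p 0.953), with a 95% interval of -0.79 to 0.85. It depended on the scaling: the log2 fold change was 0.72 (limma adjusted p 0.0399) under TPM scaling and 0.80 (adjusted p 0.0296) after quantile normalization, and set against the all-gene median it was 0.11 in the main scaling and 0.32 and 0.73 in these. Its sign changed without Lsm14b-KO replicate 1, to -0.25, and the adjusted p lay between 0.0296 and 0.998 over its 15 alternatives.

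Separase mRNA was scarce in every library. Espl1 (chromosome 15, 102296266 to 102324357, plus strand) was listed at 0, 0.069 and 0.077 FPKM in WT and had 0.089, 0.30 and 0.29 FPKM in Lsm14b-KO libraries. Every Lsm14b-KO value was above every WT value, but all rested on few reads: about 0, 2 and 2 fragments stood behind the WT values and about 3, 15 and 16 behind the Lsm14b-KO values. Per unit of depth the Lsm14b-KO libraries held 4.94 times the WT fragments, with an exact 95% interval of 1.76 to 19.2 for counting error alone. Espl1 was under the minimum of the test, and in the fit without a minimum its log2 fold change was 0.22 (SE 0.087, limma adjusted p 0.182). It overlaps 1 processed pseudogene, Gm49480. The securin mRNA thus outnumbered that of its target in FPKM in each of the 6 libraries, by values of 627 FPKM or more against 0.30 FPKM or less.

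**Figure D4:**
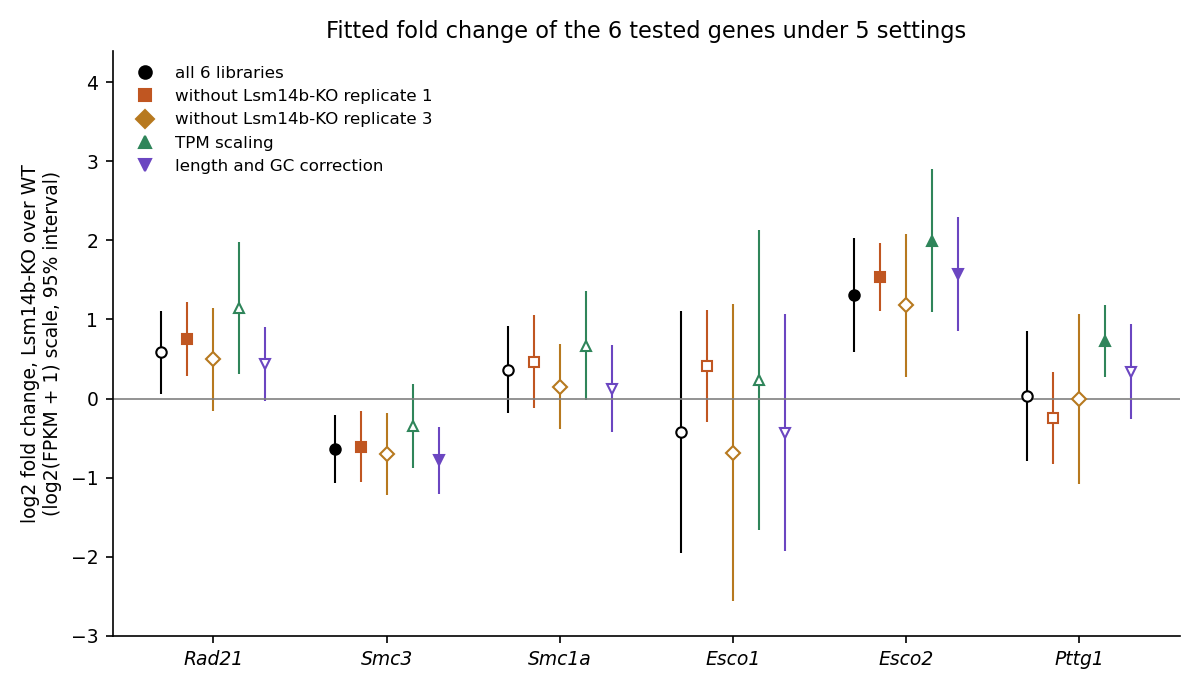
Log2 fold change of the 6 tested genes (Lsm14b-KO over WT, log2(FPKM + 1) scale) with 95% intervals from limma, for all 6 libraries (black circles) and for 4 alternatives. Filled symbols have an adjusted p under 0.05. Esco2 is above and Smc3 below 0 in all 5 settings drawn, and Esco1 and Pttg1 change sign between them, where the TPM values include the shift of the all-gene median to 0.40.

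The level of an mRNA in these libraries was related to its length, and the 10 transcripts differ in length. Across 6321 tested genes the transcript length had a Spearman's rho of -0.30 with the WT level, -0.14 with the Lsm14b-KO level and 0.36 with the fitted log2 fold change, as a description across genes that share the same libraries. Among the 10, Pttg1 has 1674, Rec8 2184, Esco2 2913, Rad21 3956, Esco1 4545 and Smc3 4851 bases. In the fit corrected for length and GC content, Esco2 was at 1.58 (limma adjusted p 0.0128) and Smc3 at -0.78 (adjusted p 0.0226), and Rad21 was at 0.44 (adjusted p 0.151). Whether length plays any further part in these values was not tested.

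Genes that act around this cycle were taken from 5 lists of 48 genes, of which 30 passed the minimum. Of the 30, 4 were called as higher and 3 as lower, with a median log2 fold change of 0.34, where the 21.6% of calls and the median of -0.08 over all tested genes are the background. Without Lsm14b-KO replicate 1 the count was 16, where 45.3% of all tested genes were called, and leaving out any other library gave 2 or 3. Of the other cohesin subunits, Stag2, a STAG protein of mitotic cohesin, was the most abundant and the single one tested. Stag2 had 1.22, 0.52 and 0.79 FPKM in WT and 0.41, 0.12 and 0.21 FPKM in Lsm14b-KO libraries, without overlap. Its log2 fold change was -0.56 (SE 0.22, limma adjusted p 0.108). It passed the minimum only through WT replicate 1, in the group where it was higher. Without a minimum its limma adjusted p was 0.147. Stag1 was under the minimum, at 0.19 to 0.52 FPKM in WT and 0.090 to 0.34 FPKM in Lsm14b-KO libraries. Neither of the 2 tested genes of loading and release was called, and the highest, Cdca5 (sororin, which guards acetylated cohesin from release), had 32.6 to 53.8 FPKM in WT and 37.7, 89.1 and 76.0 FPKM in Lsm14b-KO libraries. The fold change of Cdca5 on the log2 scale was 0.68 (limma adjusted p 0.227). Without Lsm14b-KO replicate 1 it was 1.05 (limma adjusted p 0.0180), the single alternative of 15 past the threshold. The highest limma adjusted p among them was 0.456.

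Of 5 tested genes of replication-coupled establishment, Tipin, which protects stalled replication forks with its partner Timeless, was called as lower. It fell from 908, 905 and 843 FPKM to 231, 70.6 and 82.7 FPKM in the Lsm14b-KO libraries, a log2 fold change of -2.99 (SE 0.46, limma adjusted p 0.00557), and it stayed past the threshold in all 15 alternatives. Of 9 tested genes of protection at centromeres, 1 was called in each direction. Gsg2 (haspin, a kinase of histone H3 at centromeres) fell from 5.65, 5.99 and 3.37 FPKM to 2.39, 1.58 and 1.87 FPKM, and Bub1, a checkpoint kinase that places shugoshin, rose from 0.62, 1.03 and 0.78 FPKM to 1.48, 3.95 and 2.36 FPKM. Their log2 fold changes were -1.01 (limma adjusted p 0.0273) and 0.94 (adjusted p 0.0451). Gsg2 stands within the gene Itgae on the other strand, and 1 annotated gene, Gm49629, is at least 90% identical to part of it. The most abundant gene of that list, Ppp2ca, a catalytic subunit of the phosphatase PP2A, had a log2 fold change of 0.34 (limma adjusted p 0.307).

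Of 13 tested genes of the control of separase and of cleavage, 3 were called as higher and 1 as lower. Dbf4 and Cdc7 encode the partners of 1 kinase, and they went opposite ways: Dbf4 fell from 18.3, 17.7 and 15.1 FPKM to 4.77, 4.74 and 5.73 FPKM, and Cdc7 rose from 0.49, 1.45 and 0.57 FPKM to 1.75, 2.65 and 2.28 FPKM. The log2 fold changes were -1.57 (limma adjusted p 0.00435) and 0.84 (adjusted p 0.0473). Fbxo5, an inhibitor of the anaphase-promoting complex, rose from 7.21, 9.16 and 10.5 FPKM to 13.5, 76.5 and 40.6 FPKM (log2 fold change 1.87, limma adjusted p 0.0475). In the annotation 3 other genes hold a stretch that is at least 90% identical to part of Fbxo5. Csnk1e, a casein kinase 1, a family that phosphorylates REC8 for cleavage, rose from 2.22, 1.94 and 2.15 FPKM to 3.49, 5.59 and 3.76 FPKM (log2 fold change 0.75, limma adjusted p 0.0449). Dbf4 stayed past the threshold in 14 of 15 alternatives, Gsg2 in 9, Fbxo5 in 8, Bub1 in 7, and Cdc7 and Csnk1e in 6. Leaving out Lsm14b-KO replicate 2 or 3, or WT replicate 1, each ended the calls of Gsg2, Bub1, Fbxo5, Cdc7 and Csnk1e. Bub1 and Fbxo5 had been picked by the study from these libraries, and the study also reports their upregulation by qRT-PCR. Mad2l1, a checkpoint protein that restrains the anaphase-promoting complex, was the most abundant of this list, with 3452, 3192 and 2966 FPKM in WT and 3166, 896 and 1220 FPKM in Lsm14b-KO libraries. The fold change of Mad2l1 on the log2 scale was -1.08 (limma adjusted p 0.122). Without Lsm14b-KO replicate 1 it was -1.61 (limma adjusted p 0.00149), the single alternative of 15 past the threshold. It was -0.39 (limma adjusted p 0.276) under TPM scaling and -0.20 (limma adjusted p 0.580) after quantile normalization, which also moved the all-gene median. The annotation holds 1 near-identical copy of Mad2l1, Gm42430, so part of its reads is uncertain.

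**Figure D5:**
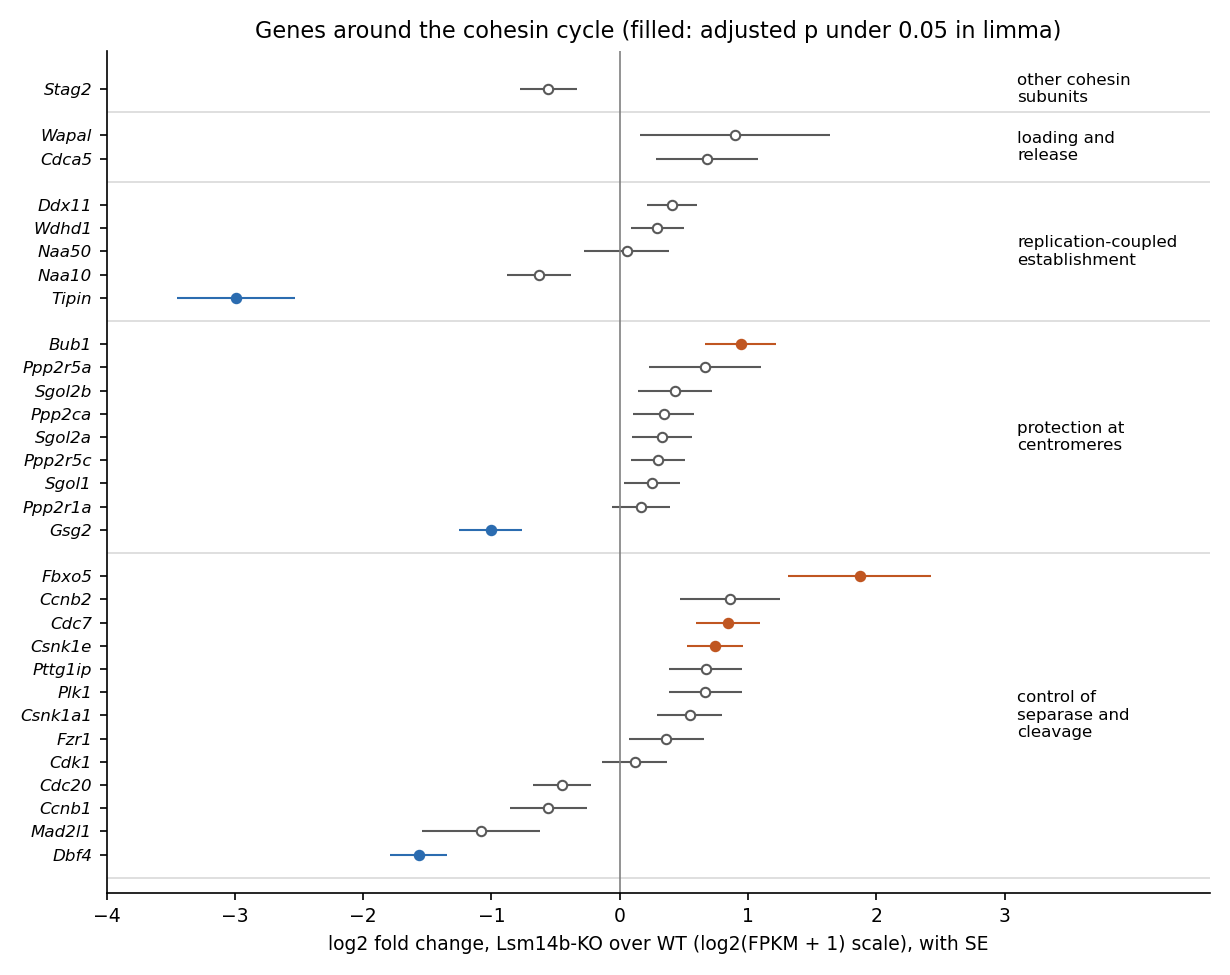
Log2 fold change (Lsm14b-KO over WT, log2(FPKM + 1) scale) with its SE for the 30 tested genes of 5 lists around the cohesin cycle, sorted within each list. Filled points have an adjusted p under 0.05 in limma, orange for higher and blue for lower. Tipin lies at -2.99 and Fbxo5 at 1.87.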

How the data were processed

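RNA-Seq values of 6 libraries were used, 3 WT and 3 Lsm14b-KO, grouped by their titles. The labels name 2 different library kits, and the strand setting is not stated. The deposited FPKM values are those the authors computed with Cufflinks 2.2.1 from trimmed reads that TopHat2 2.0.13 had placed on mm10. The labels also name Cuffnorm and Cuffdiff, and whether the values had been rescaled between libraries was not tested. The gene annotation is not given in the sources used here. The deposited table also holds the authors' cuffdiff fold changes, p-values and q-values, which were not used. The 10 genes, the gene lists and the marker lists were chosen with earlier results of these data known.

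The 6398 genes that reached 1 FPKM in 1 library or more were tested on log2(FPKM + 1) with limma 3.58.1 in R 4.3.3 (eBayes with an intensity trend, genotype as the only term), two-sided, with Benjamini-Hochberg adjustment over all of them. The script was tested on simulated data. Beside the 10 genes and Lsm14b, the genes named are, in the related lists, called genes (at most 4 per list, by fold change), the most abundant gene of each list and genes of the 7 pairs. Lengths, GC content, positions and 3′ ends came from GENCODE M21 (GRCm38, the same assembly as mm10). Copies were searched for with blastn 2.17.0 over at least 200 bases, at 95% identity for near-identical copies and at 90%. Fragments were estimated by dividing an FPKM by the value of 1 fragment, from the relative depth and the transcript length. Of 14694 low values 75.6% came within 0.1 of a whole number, so the fragments are estimates and no count model was fitted. The Pttg1 and Espl1 genes have several RefSeq transcripts, for which 1 length was assumed. Alternatives were 0.1 and 0.01 FPKM added, no minimum, a mean of at least 1 FPKM, TPM, quantile normalization, a length and GC correction, no intensity trend, a replicate block and leaving out each library.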

Additional observations from a re-analysis of the deposited data

How the results depend on the processing

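The number of the 10 genes called was 2 (Esco2 and Smc3), and it was 1 (Esco2) without a minimum, with a mean of at least 1 FPKM (which leaves Smc3 untested), without an intensity trend and with the replicate block, in which the adjusted p of Smc3 was 0.0816. It was 0 to 3 when 1 library was left out. TPM scaling also called 2, but Esco2 and Pttg1, and quantile normalization called 3, Esco2, Smc3 and Pttg1. The number of related genes called was 7, and it was 4 with 0.01 FPKM added, 3 without a minimum, 4 without an intensity trend, and 2 to 16 when 1 library was left out. Over all genes the 1383 calls became 720 without a minimum and 315 to 2898 when 1 library was left out. Same-numbered libraries had deviations from their group means that correlated at 0.19, -0.13 and 0.02, beside -0.28 to 0.31 for the other pairings. With 3 libraries per group, these values cannot tell whether the replicate numbers pair the samples. The replicate block moved the calls over all genes to 1244. The fold change of Esco1 turned positive under TPM scaling (0.24, but -0.16 against the all-gene median) and without Lsm14b-KO replicate 1, and lay between -1.002 and 0.42 when 1 library was left out. That of Pttg1 turned negative without WT replicate 3 or Lsm14b-KO replicate 1 or 3, and lay between -0.25 and 0.34. The cause was not tested. The ratios of Smc1b to Smc1a and of Esco2 to Esco1 kept their direction, with 1 FPKM added to each gene and without each library, but the log2 difference of Smc1b to Smc1a went from -0.49 to -0.052 without WT replicate 1 and that of Esco2 to Esco1 from 1.84 to 1.10 without Lsm14b-KO replicate 1. The levels of Stag3, Espl1 and Smc1b rest on at most 17 estimated fragments per library.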
